A study of Sus scrofa with 16 samples.

Results

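The genes described here are mucins and trefoil factors of the pig, read in colonic mucosa and in liver. A list of 9 genes (MUC1, MUC2, MUC4, MUC13, MUC20, TFF1, TFF2, TFF3 and AGR2) was matched to the array by the gene symbol or the bracketed symbol in the description of each probe, a 60-base DNA strand that captures 1 labeled transcript. The match gave 13 probes of 6 genes, out of 43603 probes and 6771 distinct gene names on the array. They were 2 probes of MUC1, 4 of MUC13, 2 of MUC20, 3 of MUC4 and 1 each of TFF1 and TFF2. MUC2 was found at 1 probe by its RefSeq gene number only, since the array design lists it under a LOC name. It is described beside the others and is not counted among the 13 probes. TFF3 and AGR2, 2 genes of the list, are not analysed here because no probe carried either symbol.

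Mucins are large proteins whose serine- and threonine-rich stretches carry dense O-linked sugar chains. MUC2 is secreted by goblet cells and forms the gel that covers the colonic epithelium, whereas MUC1, MUC4, MUC13 and MUC20 span the plasma membrane of epithelial cells. Trefoil factors are small, cysteine-rich peptides secreted together with mucins. TFF1 and TFF2 are best known from the stomach and TFF3 from intestinal goblet cells.

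The pigs were Duroc × Landrace × Large White barrows aged 170 d, which had eaten 1 of 2 diets for 100 days from an age of 70 d. The control diet contained purified corn starch (CS), and in the other diet raw potato starch (RPS) took its place, at 230 g/kg of feed in the growing period and 280 g/kg in the finishing period. Mucosa of the proximal colon and liver were each measured on 4 arrays per diet, 16 arrays in all, with 1 pig per array. The animals had no feed before slaughter, and the 4 pigs of a group were drawn at random from 6. The labels do not say whether a colonic and a hepatic array with the same replicate number came from the same pig.

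The 4 arrays of each group lay on 1 slide and were scanned together, and slide effects therefore cannot be told apart from those of diet or tissue. The share of probes well above background, as called by the scanner software, ranged from 64.9% to 72.2% over the colonic arrays and from 61.1% to 65.9% over the hepatic ones, and no spot was saturated. The labeled tissues matched their markers, since 14 of 14 hepatocyte genes on the array were lower and 12 of 12 absorptive colonocyte genes were higher in the colon than in the liver (limma, Benjamini-Hochberg adjusted p below 0.05 and fold change above 1.5). Fewer cells of a type and less RNA per cell cannot be told apart in these tissue samples.

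The sequences below are the parts of the probes on which the results turn, 5′ to 3′, as the scanner files give them. The probes of MUC2, MUC1 (2), MUC4 (2) and TFF1 are printed whole, and the others by their first 30 bases. Capitals mark bases that a second probe of the same gene also holds.
MUC2: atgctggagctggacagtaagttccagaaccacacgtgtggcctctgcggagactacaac
MUC1 (2): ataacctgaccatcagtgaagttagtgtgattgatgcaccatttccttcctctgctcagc
MUC4 (1): gggtgatggctctaaattaaaaaccagaat
MUC4 (2): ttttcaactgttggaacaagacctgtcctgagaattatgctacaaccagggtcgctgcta
MUC13 (1): ccgcacaagctttctttaatgttaatagta
MUC13 (2): attaCCCTTAAACTGCTTGCGACCTGGCTT
MUC13 (3): atttcattgCCCTTAAACTGCTTGCGACCT
MUC13, probe listed for 4 genes: aatccgactagtgaaccatgaggttgcggg
MUC20 (1): ggtgtcttccctgtcccaggATGTCCTTGG
MUC20 (2): ATGTCCTTGGACTTCCCCTGGCATGTGTGT
TFF1: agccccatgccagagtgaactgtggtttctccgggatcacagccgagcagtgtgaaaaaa

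These sequences set how far probes of 1 gene are separate readings. MUC13 (2) and MUC13 (3), probes A_72_P442057 and A_72_P444993, start 5 bases apart at bases 1698 and 1693 of the same RefSeq transcript and share a run of 51 bases, so they are near copies of 1 measurement. MUC13 (1), probe A_72_P165116, starts at base 2516 of that transcript and shares at most 5 bases in a row with them. MUC20 (1) and MUC20 (2), probes A_72_P633802 and A_72_P440416, share 40 bases. The 3 MUC4 probes share at most 6 bases in a row with each other, and the 2 MUC1 probes at most 9.

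The fourth MUC13 probe, A_72_P759409, is listed in the scanner files for transcripts of 4 genes, CDH11, FKBP14, ITGB3 and MUC13. It shares a run of 14 bases with 10 other probes of the array, against 0 to 5 for the other probes described here. Its signal ranked between 1 and 3 among 43803 non-control spots on every array of both tissues. Its log2 signal, normalized within each tissue, lay between 19.18 and 19.36 on all arrays. It did not pass the thresholds in any comparison of the main fits, though it was called for the interaction under 75th percentile scaling. It cannot be read as MUC13 alone.

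In the comparison of the tissues, membrane mucins were much higher in colonic mucosa than in liver. Of the 13 probes, 10 were higher in the colon and 0 were lower (limma, adjusted p below 0.05 and fold change above 1.5), against 23.4% of all probes higher and 18.7% lower. The median log2 difference over the 13 probes was 4.56, and that over all probes was 0.01. The remaining 3 probes were the MUC13 probe listed for 4 genes, TFF1 and TFF2. Log2 signals in the following 6 paragraphs were normalized over the 16 arrays together.

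**Figure D1:**
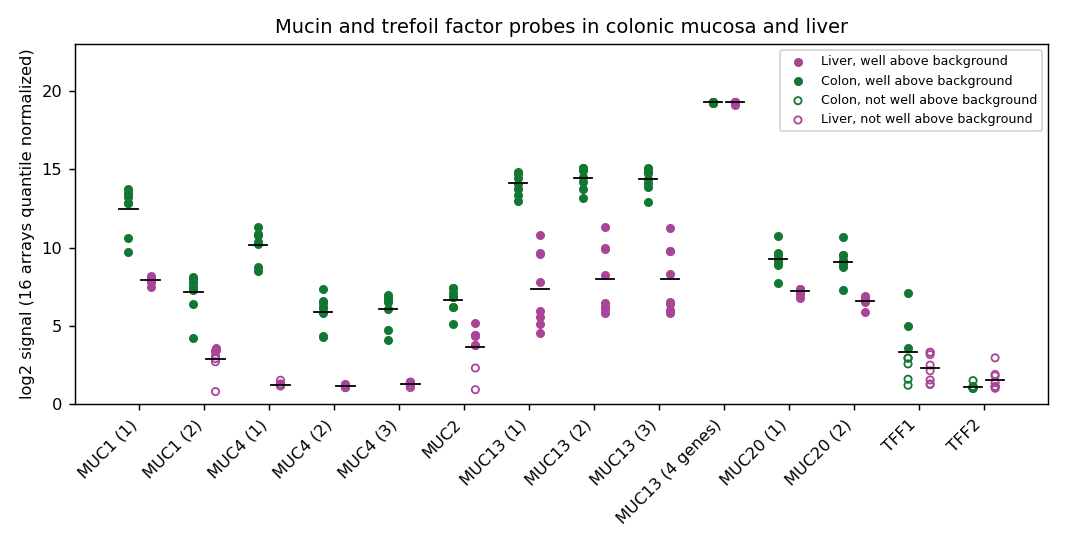
Each point is the log2 signal (vertical axis, 16 arrays quantile normalized) of 1 array at 1 probe, with 8 colonic arrays in green and 8 hepatic arrays in purple. Open points were not well above background and black lines are means of 8 arrays. All MUC4 points in liver are open, and the hepatic MUC13 points spread widely. At an adjusted p below 0.05 (limma), 10 of the 13 probes and 52.9% of all probes differed between the tissues.

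MUC4, a large membrane mucin that also binds the receptor ERBB2, was well above background in the colon alone. At MUC4 (1), probe A_72_P317763, the 8 colonic arrays read from 8.51 to 11.31, with a median of 10.57, and none of the 8 hepatic arrays was well above background. All colonic arrays were above all hepatic arrays. Because the hepatic signal has only an upper bound, the colonic signal was at least 112-fold higher (limma log2 difference 8.94, SE 0.37, adjusted p = 7e-11). MUC4 (2) and MUC4 (3), probes A_72_P140196 and A_72_P706403, gave bounds of at least 5.76-fold and at least 6.38-fold, also with 0 of 8 hepatic arrays well above background. With normexp background correction, which adds an offset, the fitted log2 differences were 3.86, 0.93 and 0.93 for MUC4 (1), (2) and (3), below these bounds, and all 3 probes were still called.

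MUC13, a membrane mucin of the intestinal brush border, was likewise far higher in colonic mucosa. At MUC13 (1) the mean was 14.12 ± 0.70 (log2, SD, n = 8) in the colon and 7.38 ± 2.40 (SD, n = 8) in the liver, and no hepatic array reached the lowest colonic one. The log2 difference was 6.74 with an SE of 0.87 (limma, adjusted p = 1.38e-05). The overlapping pair MUC13 (2) and MUC13 (3) gave 6.46 and 6.39. The SD in the liver exceeded that of every other member there.

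MUC1, a membrane mucin of most glandular epithelia, was well above background in both tissues at MUC1 (1), probe A_72_P428824. Its mean was 12.48 ± 1.48 (log2, SD, n = 8) in the colon and 7.92 ± 0.22 (SD, n = 8) in the liver. The log2 difference was 4.56, with an SE of 0.53 (limma, adjusted p = 4.61e-06). MUC1 (2), probe A_72_P444923, differed by 4.23, and it was well above background on 8 of 8 colonic but only 2 of 8 hepatic arrays. Its log2 difference was 1.55 with normexp.

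MUC20, a membrane mucin known to bind the receptor MET, was called at both of its probes. MUC20 (1) had a mean of 9.28 ± 0.84 (log2, SD, n = 8) in the colon and 7.21 ± 0.19 (SD, n = 8) in the liver, a log2 difference of 2.06 (limma, SE 0.31, adjusted p = 5.78e-05). MUC20 (2) gave a log2 difference of 2.49.

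The gel-forming MUC2 read 6.65 ± 0.78 (log2, SD, n = 8) in the colon and 3.65 ± 1.37 (SD, n = 8) in the liver at probe A_72_P180451. The groups overlapped by a narrow margin, since the lowest colonic array read 5.11 and the highest hepatic one 5.19. The colon exceeded the liver by 3.00 on the log2 scale, with an SE of 0.54 (limma, adjusted p = 0.000305), and 6 of 8 hepatic arrays were well above background. With normexp the difference was 1.02.

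The 2 trefoil factors gave no call between the tissues. TFF1 was well above background on 3 of 8 colonic and 0 of 8 hepatic arrays, and its log2 difference of 1.05 did not pass (limma, SE 0.70, adjusted p = 0.229). TFF2, probe A_72_P176391, was not well above background on any of the 16 arrays, so no level of it can be given in either tissue.

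Genes of the same cell types and of mucin sugar chains were read from lists for comparison, each at its brightest probe. Of 28 goblet cell genes listed, 11 were on the array, of which 10 were higher in the colon and 0 lower. They included CLCA1, a secreted protein of goblet cells (log2 difference 13.48), SPINK4, a goblet cell protease inhibitor (9.68), KLF4, a transcription factor of goblet cell differentiation (6.64) and BCAS1 (6.55). Their median log2 difference was 4.37. CLCA1 was well above background on 11 and BCAS1 on 10 of the 16 arrays, so their sizes rest in part on hepatic signals at background. Of 32 enzymes listed for mucin O-glycosylation, only 9 were on the array, and these split, with 4 higher and 4 lower in the colon. FUT2, the fucosyltransferase that makes secreted H antigen, was higher (6.95), as were GALNT7, an initiating GalNAc-transferase (4.06), ST6GALNAC2 (3.01) and CASD1 (1.33). FUT2 was well above background on 11 of 16 arrays. The sialyltransferases ST3GAL1 (-1.90), ST3GAL3 (-1.64) and ST3GAL4 (-1.37) and the fucosyltransferase FUT1 (-1.53) were lower. SPINK4 and ST6GALNAC2 each had a second probe with a difference of the other sign (-0.06, not called, and -0.71, called).

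A pair of mucins outside the list of members were on the array. MUC12, a membrane mucin, was 3.68 higher in the colon on the log2 scale, and 6 of the 8 probes for MUC19, a gel-forming mucin listed as apomucin, were called higher, with differences from 0.46 to 2.94 over the 8 probes. Between diets, 0 of these 8 MUC19 probes were called in the colon and 1 in the liver. The 2 other probes with mucin in their description were not called in any comparison.

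The comparison of diets in colonic mucosa asked whether long-term RPS intake changed these genes. MUC13 was the only member that passed the thresholds of the methods, an unadjusted p below 0.05 and a fold change above 1.5. Of the 13 probes, 2 were called higher with RPS and 0 lower, against 1.62% of all probes higher and 1.32% lower. Those 2 calls are 2 separate stretches of 1 transcript, not 2 genes. The arrays of the diets also differed before normalization. The median signal was 56.3 to 70.8 on the CS arrays and 34.2 to 42.5 on the RPS arrays, and 68.8% to 72.2% against 64.9% to 68.1% of all probes were well above background. The part of this difference in the calls was not tested. No call remained after adjustment over all probes, where the smallest adjusted p of a member was 0.819, and 0 of all 43603 probes passed an adjusted p of 0.05 (limma, with 2362 probes at an unadjusted p below 0.05). The median log2 difference, RPS minus CS, was 0.29 over the 13 probes and 0.01 over all probes. Log2 signals of the colon in the following paragraphs were normalized over the 8 colonic arrays.

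**Figure D2:**
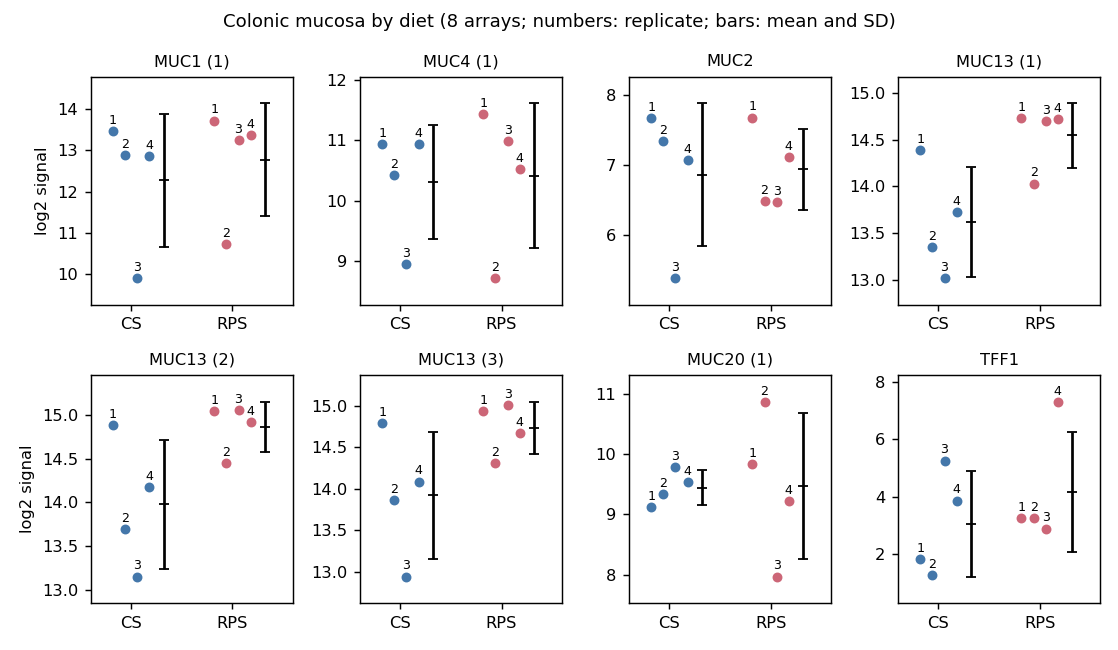
Log2 signals (vertical axes, each with its own range) of 8 probes on the 4 CS and 4 RPS colonic arrays, with the replicate number at each point and the mean and SD beside each group. CS replicate 3 and RPS replicate 2 are the lowest of their group for MUC1, MUC4 and MUC13 and the highest for MUC20, and the diets overlap at all 8 probes.

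At MUC13 (1) the CS arrays read 14.39, 13.35, 13.01 and 13.72 and the RPS arrays 14.73, 14.03, 14.70 and 14.72. All but 1 of the CS arrays lay below every RPS array, and CS replicate 1 lay above RPS replicate 2. The log2 difference was 0.93 with an SE of 0.32, a 1.90-fold change (limma, p = 0.0213, adjusted p = 0.819), and the exact two-sided permutation p was 0.0571, where 4 arrays against 4 cannot go below 0.0286. The call was lost without CS replicate 2 (0.84), RPS replicate 1 (0.87), RPS replicate 3 (0.87) or RPS replicate 4 (0.86), each at an unadjusted p above 0.05.

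MUC13 (2) read 14.88, 13.70, 13.16 and 14.17 with CS and 15.04, 14.45, 15.05 and 14.91 with RPS. As at MUC13 (1), CS replicate 1 was the only CS array above an RPS array. The log2 difference was 0.88 with an SE of 0.36 (limma, p = 0.044, adjusted p = 0.911), and the exact permutation p was 0.0571. MUC13 (3), which shares most of its bases with MUC13 (2), differed by 0.81 and did not pass (limma, p = 0.0702, adjusted p = 0.947, exact permutation p = 0.0857). Over 12 fits at the same thresholds, the reported one and its alternatives other than the removal of a single array, the 3 probes were higher with RPS in every fit, and MUC13 (1) was called in 11, MUC13 (2) in 9 and MUC13 (3) in 0. The 12 fits reuse the same arrays, and several leave the difference unchanged, so their agreement is not separate support. With single arrays removed, MUC13 (2) was called in only 2 of 8 fits, with differences from 0.61 to 1.19. At a fold change above 2, no MUC13 probe was called.

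The other members did not pass. MUC1 (1) read 13.46, 12.90, 9.91 and 12.86 with CS and 13.73, 10.74, 13.26 and 13.36 with RPS. CS replicate 3 and RPS replicate 2 lay more than 2 log2 units below the others of their diet. The log2 difference of 0.49 was smaller than its SE of 0.96 (limma, adjusted p = 0.992), and the sign turned without CS replicate 3 (-0.30). MUC1 (2) differed by 0.54 with an SE of 0.85.

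MUC4 (1) read 10.94, 10.42, 8.95 and 10.93 with CS and 11.44, 8.71, 10.99 and 10.52 with RPS, a log2 difference of 0.11 with an SE of 0.69 (limma, adjusted p = 0.999). The other 2 MUC4 probes differed by 0.29 and 0.08. The same array of each diet was lowest at all 3 probes.

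MUC20 (1) read 9.12, 9.34, 9.79 and 9.53 with CS and 9.83, 10.87, 7.97 and 9.22 with RPS. The RPS arrays spread on both sides of the CS arrays, and the log2 difference was 0.03 with an SE of 0.57 (limma, adjusted p = 1). MUC20 (2) differed by -0.04.

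MUC2 read 7.66, 7.33, 5.38 and 7.06 with CS and 7.67, 6.48, 6.47 and 7.10 with RPS. CS replicate 3 was lowest, RPS replicates 2 and 3 lay below the other 3 CS arrays, and the sign turned without CS replicate 3 (-0.42). The log2 difference was 0.07 with an SE of 0.53 (limma, adjusted p = 0.999).

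TFF1 was well above background on 3 of 8 colonic arrays, which read 5.26 (CS replicate 3), 3.86 (CS replicate 4) and 7.32 (RPS replicate 4). The other 5 read from 1.26 to 3.25 and were not well above background. A log2 difference of 1.12 with an SE of 1.27 did not pass (limma, adjusted p = 0.982, exact permutation p = 0.514).

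The colonic arrays of a diet differed from each other in a shared pattern. CS replicate 3 and RPS replicate 2 were the lowest array of their diet at 8 of the 13 probes, namely both MUC1 probes, all 3 MUC4 probes and the 3 MUC13 probes listed for MUC13 alone. They were the highest of their diet at 3 probes, which were the 2 MUC20 probes and the MUC13 probe listed for 4 genes, where several arrays tied. Among 26493 probes well above background on all 8 colonic arrays, 27.7% were lowest and 27.4% highest on both arrays, so the 2 arrays stood apart far beyond the mucins.

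**Figure D3:**
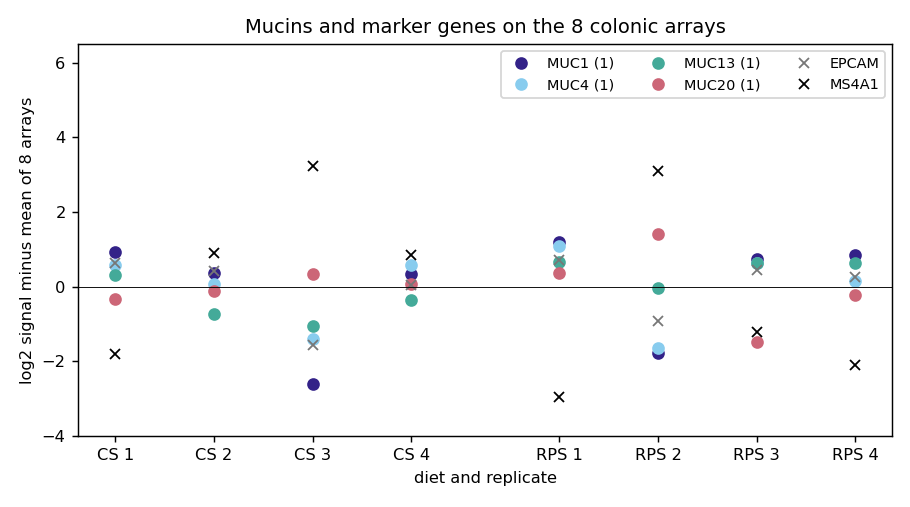
Log2 signal minus its mean over the 8 colonic arrays (vertical axis) for 4 mucin probes (circles) and for EPCAM and MS4A1 (crosses) on each array (horizontal axis, diet and replicate). On CS replicate 3 and RPS replicate 2, MUC1, MUC4 and EPCAM are below 0 and MS4A1 is above it by about 3 units, while MUC20 is above 0.

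The marker lists moved on the same arrays. Of 12 absorptive colonocyte genes, 9 were lowest of their diet on both arrays, and the summed log2 signal of the list was 17.57 on CS replicate 3 and 18.34 on RPS replicate 2, against 19.14 to 19.63 on the other 6. Goblet cell genes were lowest on both at 6 of 11 genes, with summed signals of 16.40 and 16.89 against 17.25 to 18.04. EPCAM, an adhesion protein of epithelial cells, read 13.94 and 14.58 against 15.54 to 16.21, and SLC26A3, the chloride exchanger of surface colonocytes, read 9.12 and 10.82 against 11.37 to 14.93.

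B cell markers ran the other way. Of 3 genes on the array for B and plasma cells, 2 were highest of their diet on both arrays, and the summed log2 signal was 13.59 and 13.41 against 11.65 to 12.29. MS4A1, the B cell antigen CD20, read 12.72 and 12.57 on these arrays against 6.50 to 10.37 on the other 6. The part of cell mixture in the mucin signals was not tested.

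Without these 2 arrays, MUC13 (1) remained called at the unadjusted threshold, with a log2 difference of 0.91 (limma, adjusted p = 0.444), and MUC13 (2) missed it at 0.75 (limma, adjusted p = 0.573). The count of called probes was then 1 of 13, against 5.47% of all probes. MUC1 (1) differed by 0.38 and MUC4 (1) by 0.22, neither called, and MUC20 (1) (-0.32) and MUC2 (-0.27) turned sign without passing.

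No gene of the 11 lists read beside the members passed the thresholds between diets in the colon at its brightest probe. A single dimmer probe each of ST3GAL4, ACTA2, CNN1 and CD163 passed as lower with RPS, and the lowest differences among the probes of these genes were -0.83, -0.71, -0.78 and -0.63. For the goblet cell list, 8 of 11 genes were higher with RPS with a median log2 difference of 0.09, and for the O-glycosylation enzymes 7 of 9 with a median of 0.07. B and plasma cell genes had a median of -1.60, with 0 of 3 genes higher with RPS, and macrophage genes a median of -0.06. Smooth muscle genes, of which 4 were on the array, had a median of -0.38. Their summed log2 signal was 14.80 to 15.01 with CS and 14.27 to 14.69 with RPS. For the other lists among the 11 the summed signals of the diets overlapped. The part of muscle in the mucosal samples in the diet difference of MUC13 was not tested. The brightest genes of each list differed by 0.02 (CLCA1) and 0.08 (SPINK4) for goblet cells, -0.41 (ST6GALNAC2) and 0.03 (GALNT7) for O-glycosylation and -0.12 (CD79A, a subunit of the B cell receptor) and -1.60 (MS4A1) for B and plasma cells, and MUC12 and MUC19 by -0.60 and -0.18.

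By deviations from the diet means over the 8 colonic arrays, the genes most like MUC13 (1) were TEAD4 (Pearson r = 0.995), HSP70.2 (0.976), APOA1 (0.973), EPCAM (0.960) and FSD1L (0.959), among 8733 named probes searched. For the probe listed for 4 genes they were SDS (0.955), TAC3, ALOX12, CYP24A1 and TEPP (0.899 to 0.912). That probe ranged over only 0.076 log2 units on these arrays, where its rank moved by 1 place. Its correlations therefore do not show shared expression. These correlations are descriptions over 8 arrays that share normalization and the marker differences given above.

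In the liver, the diets gave a call at 1 dim member probe. Of the 13 probes, 1 was called higher with RPS and 0 lower, against 1.8% of all probes higher and 1.76% lower. The median log2 difference was 0.14 over the 13 probes and -0.004 over all probes. Log2 signals of the liver below were normalized over the 8 hepatic arrays.

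The call was MUC1 (2), which read 0.84, 2.62, 2.42 and 2.80 with CS and 3.18, 3.08, 3.31 and 3.12 with RPS. The diets did not overlap, but 0 of 4 CS arrays and 2 of 4 RPS arrays were well above background. The fitted log2 difference was 1.00 (limma, SE 0.41, p = 0.0439, adjusted p = 0.636), and the exact permutation p was 0.0286, the smallest that 4 against 4 allows. The difference is therefore not one between measured levels. MUC1 (1), at which all 8 hepatic arrays were well above background, differed by 0.14 with an SE of 0.16. The call at MUC1 (2) was lost without any single one of 6 of the 8 arrays.

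MUC13 in the liver differed widely between pigs of both diets. MUC13 (1) read 5.68, 5.29, 9.46 and 7.57 with CS and 4.89, 4.28, 10.67 and 9.41 with RPS. CS replicate 3, RPS replicate 3 and RPS replicate 4 were above 9, and CS replicate 4 was between them and the other 4, so each diet held high and low pigs. From highest to lowest, the order by replicate number was 3, 4, 1 and 2 in both diets. Whether the spread follows something shared by arrays of the same number was not tested. The whole range was 83.4-fold. The log2 difference between diets was 0.31 with an SE of 1.68 (limma, adjusted p = 0.993).

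The 2 overlapping probes repeated this pattern, from 5.55 to 11.21 at MUC13 (2) and from 5.61 to 11.15 at MUC13 (3), with the same 3 arrays above 9. By SD over the 8 hepatic arrays, MUC13 (1), MUC13 (2) and MUC13 (3) ranked 4, 10 and 14 among 24956 probes well above background on all of them, with SDs of 2.45, 2.20 and 2.13 against a median SD of 0.26. The ranks describe these arrays, and 1 array was measured per pig. Deviations at MUC13 (1) and MUC13 (3) correlated with those at MUC13 (2) at r = 0.999.

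**Figure D4:**
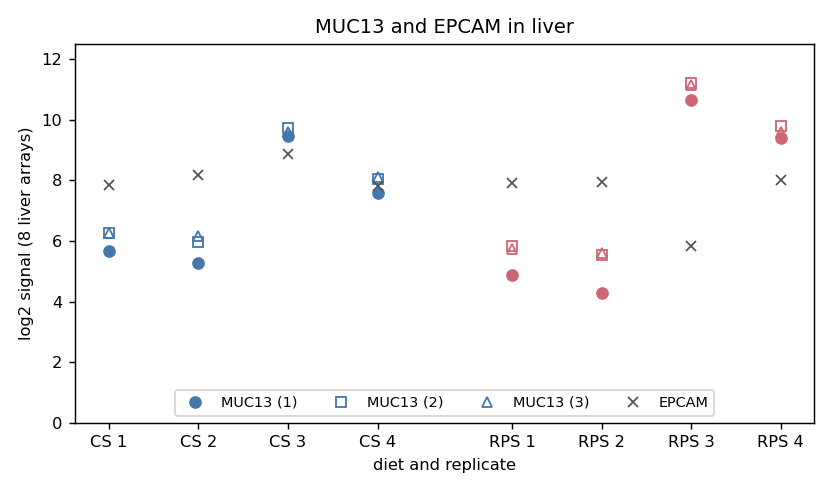
Log2 signal (vertical axis) of 3 MUC13 probes on the 8 hepatic arrays (horizontal axis, diet and replicate; CS blue, RPS red), with EPCAM as gray crosses. The 3 probes move together from about 4 to 11, CS replicate 3, RPS replicate 3 and RPS replicate 4 are highest, and EPCAM is lowest on RPS replicate 3, where MUC13 is highest.

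EPCAM, which marks bile duct epithelium in the liver, spread less and not in the same order. It read 7.86, 8.17, 8.86 and 7.81 with CS and 7.91, 7.94, 5.83 and 8.02 with RPS, highest on CS replicate 3, where MUC13 was high too, and lowest on RPS replicate 3, where MUC13 was highest. Summed over the 9 cholangiocyte genes on the array, the log2 signal ranged from 12.71 to 13.20 with CS and from 12.52 to 12.86 with RPS. The part of cell mixture in the hepatic MUC13 signals was not tested. Among 8513 other named probes, those whose deviations were most like MUC13 (2) were AMY2 (r = 0.984), PBX2 (0.971), GLRX (0.964), CD40 (0.958) and LPPR5 (0.952), and their own ranges, 0.73 to 2.00 log2 units, were far narrower than the 5.66 of MUC13 (2).

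MUC2 in the liver was not well above background on CS replicate 3 (2.01) and RPS replicate 3 (0.96), which had the highest MUC13 of their diets. The other 6 hepatic arrays read from 3.51 to 4.92 and were well above background. The log2 difference between diets was -0.74 with an SE of 0.85 (limma, adjusted p = 0.873).

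The remaining members varied little or were at background in the liver. MUC20 (1) read from 6.80 to 7.08 with CS and from 6.58 to 7.15 with RPS, a log2 difference of 0.01 with an SE of 0.15. MUC4, TFF1 and TFF2 were not well above background on any hepatic array. TFF1 differed by 0.96 without passing (limma, p = 0.0614, exact permutation p = 0.0857), a difference with no bound because both diets lay below background.

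Some genes read from lists at their brightest probe passed the thresholds between diets in the liver. FUT1, a fucosyltransferase (-0.71), CA1, a carbonic anhydrase (-0.80), and SOX9, a transcription factor of bile duct cells (-1.13), were lower with RPS, and ATP4A, the gastric proton pump subunit, was higher (0.71). SOX9 was 1 of 2 cholangiocyte genes that passed, both lower. The adjusted p-values of the 4 genes named lay between 0.342 and 0.626 (limma). No goblet cell gene on the array passed at its brightest probe.

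The diet effect in the colon was then set against that in the liver. None of the 13 probes passed, 0 called against 3.76% of all probes (limma, interaction of diet and tissue, unadjusted p below 0.05 and fold change above 1.5). The smallest unadjusted p was 0.226, for TFF2, which was at background throughout, and the smallest adjusted p was 0.999. For MUC13 (1) the diet effect in the colon exceeded that in the liver by 0.67 on the log2 scale, with an SE of 1.74 (limma, adjusted p = 0.999). The diet effects in the 2 tissues were thus not shown to differ.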

How the data were processed

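Colonic mucosa and liver of pigs were hybridized to 16 one-color porcine arrays, 4 per diet and tissue. Per the file headers, the authors extracted spot intensity values with Agilent Feature Extraction (version 10.7, submitters' notes), which subtracted the background and replaced signals not above error by surrogate values. Deposited log2 values, quantile normalized by the authors, served as an alternative only. Control spots were left out and spots marked as outliers were set to missing (0 of the spots described here). The log2 signals were then quantile normalized, within a tissue for the comparison of diets and over both tissues for colon against liver and for the interaction, and averaged per probe. No filter on signal was applied.

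Differences were fitted with limma 3.58.1 (lmFit and eBayes, R 4.3.3, data.table version 1.17.8) on 43603 probes, with Benjamini-Hochberg adjustment over them. The thresholds of the methods (unadjusted p of 0.05, fold change of 1.5) were used for diet and interaction, and an adjusted p of 0.05 with the same fold for colon against liver. Single probes also had an exact two-sided permutation test. Where no array of a group was well above background, the fold was bounded by each array's lowest signal well above background or the probe's own signal, whichever was higher. Precision is limited by the number of arrays. The fits were tested on simulated data. Files were read and figures drawn with Python 3.11.15, pandas 2.3.3 and matplotlib 3.10.9.

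The members and gene lists were chosen with earlier results of these data known. All probes of the members were described. From lists with calls the text names some of the genes called, and from some lists without a call the 2 brightest, each gene at its brightest probe. Likeness was sought for the brightest member probe in the colon and for the one with the largest diet statistic, and the search in the liver, the marker genes given per array and the 2 colonic arrays left out together were chosen after the values were seen. The lists held other mucins, goblet cell, O-glycosylation, absorptive colonocyte, hepatocyte, cholangiocyte, gastric, pancreatic acinar, smooth muscle, B and plasma cell and macrophage genes. Results of some listed genes are not reported here. Replicate numbers were not taken as pairs. Alternatives covered scaling, background correction, the deposited table, outlier spots, a filter on dim probes, the variance trend, the fold threshold, Student's test as in the methods, blocks for number and slide, and the removal of arrays.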

Additional observations from a re-analysis of the deposited data

Results flagged for a closer look

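Of 56 groups of 4 arrays examined, 9 held an array far from the other 3. Chance alone gives such a gap in about 1 group in 20 where groups are independent. These groups share arrays, and some of their probes overlap, so an excess over chance was not tested. Of the 9 groups, 4 involved colonic membrane mucins on the arrays low in epithelial markers. MUC1 (1) read 9.905 on CS replicate 3, against 12.856 to 13.464 on the other CS arrays, and 10.741 on RPS replicate 2, against 13.257 to 13.726. On RPS replicate 2, MUC13 (1) read 14.029 (the others 14.699 to 14.729) and MUC4 (3) read 4.357 (the others 6.869 to 7.243). In the colon, TFF1 read 7.316 on RPS replicate 4, the only RPS array well above background for it (the others 2.882 to 3.248). In the liver, RPS replicate 3, highest for MUC13, was lowest for MUC20 (1) at 6.576 (the others 7.09 to 7.154) and for MUC20 (2) at 5.665 (the others 6.421 to 6.478). The other 2 concern values that cannot be read as levels, TFF1 at 1.344 on hepatic RPS replicate 2, below background, and the MUC13 probe listed for 4 genes at 19.212 on colonic CS replicate 1, where its rank moved by 1 place (the others 19.288).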

How the results depend on the processing

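The difference between colon and liver held for the same 10 probes under every alternative and with each array left out (10 to 10 called). Under normexp, differences that rest on dim hepatic signals were smaller by over 1.5 times, at 3.864, 0.927 and 0.93 for the MUC4 probes, 1.554 for MUC1 (2) and 1.017 for MUC2, and the order of the probes changed. Under 75th percentile scaling TFF2, below background throughout, was also called, as lower in the colon (-0.686). The diet result in the colon depended on the fit, the fold threshold and single arrays. Its count of 2 became 0 in 1 fit of all 16 arrays (3.52% of all probes called), 0 at a fold change above 2 (1.19%) and 1 with the methods' t-test (2.21%). It was 1 without CS replicate 3 and RPS replicate 2 (5.47%), chosen after seeing the data. It was 0 to 3 with single arrays left out (2.45% to 3.29% where it fell). The liver count of 1 became 0 under normexp (0.505% of all probes called), the authors' table (3.58%) and the filter on dim probes (3.65%). It was also 0 with normalization over 16 arrays (3.6%), 1 fit of all arrays (3.78%) and the methods' t-test (2.63%). With single arrays left out it was 0 to 2 (3.23% to 4.65% where it changed). The interaction count of 0 became 1 under 75th percentile scaling, where 4.42% of all probes were called. The probe called was the MUC13 probe listed for 4 genes (0.628), which cannot be read as MUC13 alone. The cause was not tested. Signs turned only for differences that were not called. Under 75th percentile scaling these were the MUC13 probe listed for 4 genes (0.554 for diet in the colon, -0.44 for colon against liver), TFF2 in the colon (0.101) and MUC4 (1) in the liver (0.06). Under normexp MUC2 in the colon was -0.006. Without the 2 colonic arrays MUC20 (1) was -0.324 and MUC2 -0.268, and the probe listed for 4 genes was -0.001 for colon against liver (-0.018 within the CS diet). With single arrays left out, the diet difference in the colon ranged from -0.304 to 1.17 for MUC1 (1), from -0.349 to 0.675 for MUC4 (1), from -0.438 to 0.533 for MUC20 (1) and from -0.418 to 0.342 for MUC2. It ranged from -0.05 to 0.149 for hepatic MUC20 (1), from -0.015 to 0.017 for the probe listed for 4 genes between tissues, and from -0.315 to 1.767 for the interaction at MUC13 (1). With the replicate block the counts stayed at 2 in the colon and 1 in the liver, though hepatic TFF1 (0.958) passed and MUC1 (2) (1.001) did not, and MUC2 (-0.742) passed beside the 13 probes. Deviations of same-numbered arrays of the 2 diets correlated at 0.477, -0.317, -0.482 and 0.093 in the colon and from -0.134 to 0.071 in the liver. So few pairs of arrays cannot decide whether the numbers mark a shared block. Hepatic MUC13 (1), (2) and (3) had the same order by number in both diets. Colonic and hepatic arrays of the same number correlated at 0.146 to 0.329 with CS and at -0.072 to 0.129 with RPS. With diet and number as a random replicate block, 10 probes were called between tissues and 0 for the interaction. MUC4, TFF1 and TFF2 in the liver and TFF2 in the colon were below background, where differences between diets cannot be read.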
